A study of Mus musculus with 6 samples.

Results

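Apolipoproteins are the protein coat of the particles that carry lipid in plasma. Of the 10 apolipoprotein genes chosen by symbol, namely Apoa1, Apoa2, Apoa4, Apoa5, Apob, Apoc1, Apoc2, Apoc3, Apoe and Apom, 9 had a row in the deposited array table. That is 9 of 19505 named genes. Each of the 9 had a single row, and Apoc2 is not analysed here.

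The data are Clariom S mouse arrays, single-colour Affymetrix arrays that read each gene through several short probes, with 1 array for each of 6 livers. The livers came from male C57BL/6 mice aged 8 weeks, 3 of them wild type (WT) and 3 with Hmgb2 knocked out (HMGB2-KO), and the labels name no treatment or surgery. The sample labels carry the numbers 38, 40 and 31 for the WT livers and 39, 41 and 32 for the HMGB2-KO livers, taken here as animal numbers and given in order of replicate. Values by liver follow the same order throughout, replicate 1, 2 and 3. The sources used here do not say which part of Hmgb2 was deleted, or in which tissues. This comparison asks which liver transcripts go with the loss of HMGB2, a DNA-bending chromatin protein.

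In liver, hepatocytes build very-low-density lipoprotein around a single molecule of apolipoprotein B, and they secrete apolipoproteins A-I and A-II as the main proteins of high-density lipoprotein (HDL). Smaller exchangeable apolipoproteins move between particles and set their fate: members of the C group tune lipolysis and uptake, A-V promotes lipolysis, and E is the ligand by which liver receptors clear remnants. Apoa4 is made mostly in intestine and, in the mouse, also in liver. Apolipoprotein M binds a signalling lipid on HDL. By the RefSeq gene order of assembly GRCm38.p6, Apoa1, Apoc3, Apoa4 and Apoa5 lie next to each other on chromosome 9, with no other protein-coding gene between them. Apoe and Apoc1 are neighbours on chromosome 7.

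The sequences 250 bases upstream of the annotated start of Apoa1, Apoa4 and Apob are shown because the first and second are close neighbours that varied very differently between livers, and Apob is the structural gene of the other particle class. They are from RefSeq, GRCm38.p6, plus strand, at chr9:46228380-46228629, chr9:46240594-46240843 and chr12:7977427-7977676. Capitals mark CAAAGNNC, the core of a repeat bound by HNF4-type receptors, AGGTCA, the short core of nuclear receptor sites, and TATAAA, each searched on both strands.
Apoa1: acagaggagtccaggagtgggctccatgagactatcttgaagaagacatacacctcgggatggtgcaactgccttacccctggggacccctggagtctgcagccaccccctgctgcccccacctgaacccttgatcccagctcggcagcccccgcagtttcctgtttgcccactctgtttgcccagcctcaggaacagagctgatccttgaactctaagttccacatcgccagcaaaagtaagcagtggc
Apoa4: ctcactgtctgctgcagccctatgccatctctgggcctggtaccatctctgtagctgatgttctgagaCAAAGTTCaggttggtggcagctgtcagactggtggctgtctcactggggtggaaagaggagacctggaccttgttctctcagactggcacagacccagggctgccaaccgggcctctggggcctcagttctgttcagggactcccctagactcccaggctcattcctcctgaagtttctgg
Apob: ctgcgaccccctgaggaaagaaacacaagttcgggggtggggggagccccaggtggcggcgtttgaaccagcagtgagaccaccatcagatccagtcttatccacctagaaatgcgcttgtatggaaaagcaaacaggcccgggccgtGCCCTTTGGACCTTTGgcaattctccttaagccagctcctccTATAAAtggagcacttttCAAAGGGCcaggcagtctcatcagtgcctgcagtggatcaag
CAAAGNNC occurred 1 time in the Apoa4 window, its first base 182 bases before the start, and 3 times in the Apob window, at 102, 94 and 42 bases before it. It occurred in 15.4% of all 32851 windows of this length. TATAAA stood 60 bases before the Apob start, and 12.4% of windows held it. AGGTCA occurred in none of the 3 windows shown and in 14.0% of all windows. None of the 3 motifs was found in these 250 bases of Apoa1. These are matches of letters only. Upstream sequence was matched for 7 of the 9 genes, all but Apoc1 and Apoc3. Over the 11 windows of these 7 genes, CAAAGNNC occurred in 2, both among the 3 shown. TATAAA occurred in 5 of the 11 and AGGTCA in 1.

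The values are log2 differences from an unstated baseline of each row, so they can be compared between livers but not between genes. Each array was centred on its median. Because no level can be read, the liver label could not be checked by the height of its markers. Hmgb2 itself lay at 0.47, 0.36 and 0.42 in the WT livers and at -0.66, -0.33 and -0.43 in the HMGB2-KO livers, each liver on the side of its label. Its log2 fold change of -0.89 (SE 0.13, limma adjusted p = 0.645) did not pass the threshold of 0.05, so the targeted gene itself was not among the calls. The array of WT replicate 2 stood apart. Its median over all rows was 0.26 as deposited, against -0.05 to 0.01 on the other arrays, while the median of 22 other plasma protein genes of hepatocytes was 0.00 there. Centring therefore put those genes at a median of -0.25 on that array. The livers numbered 3 (animals 31 and 32) also differed from the rest. Their deviations from the group means correlated at r = 0.29, against -0.21 to -0.03 for a liver numbered 3 with the livers numbered 1 and 2 of the other genotype. Deviations within a group sum to 0, so these negative values are not independent of the r of 0.29. Nr1d1, a clock-controlled nuclear receptor gene named after its values were seen, was at -1.57 in WT replicate 3 and -1.52 in HMGB2-KO replicate 3, and at 2.88 to 3.27 in the other 4 livers. Within animals 38 to 41, which leave those 2 livers out, 0 of all 19505 genes were called, the apolipoprotein genes included. Nothing in the labels says that the livers of a group came from separate litters or days, so the p-values measure the spread between these animals.

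None of the 9 apolipoprotein genes passed the adjusted threshold of 0.05 in limma, and none had an unadjusted p under 0.05 or groups that did not overlap. Among all genes 0% passed the adjusted threshold. At an unadjusted p under 0.05 stood 3.68% of all genes, 1.06% higher and 2.61% lower in HMGB2-KO. Groups did not overlap for 9.67% of all genes, 4.32% higher and 5.35% lower. The per-gene test without moderation also called 0 genes after adjustment, with 837 at an unadjusted p under 0.05. The adjusted p of the 9 genes lay between 0.994 and 0.999. With all 6 livers 7 genes were higher and 2 lower in HMGB2-KO, with a median log2 fold change of 0.10, against -0.00 over all genes. These signs follow the scaling. With the values as deposited 2 were higher and 7 lower (median -0.02), with arrays centred on plasma protein genes 5 were higher (median 0.07), with quantile normalization 8 were (median 0.11), and without WT replicate 2 4 were (median -0.02). No direction can thus be given for the group.

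**Figure D1:**
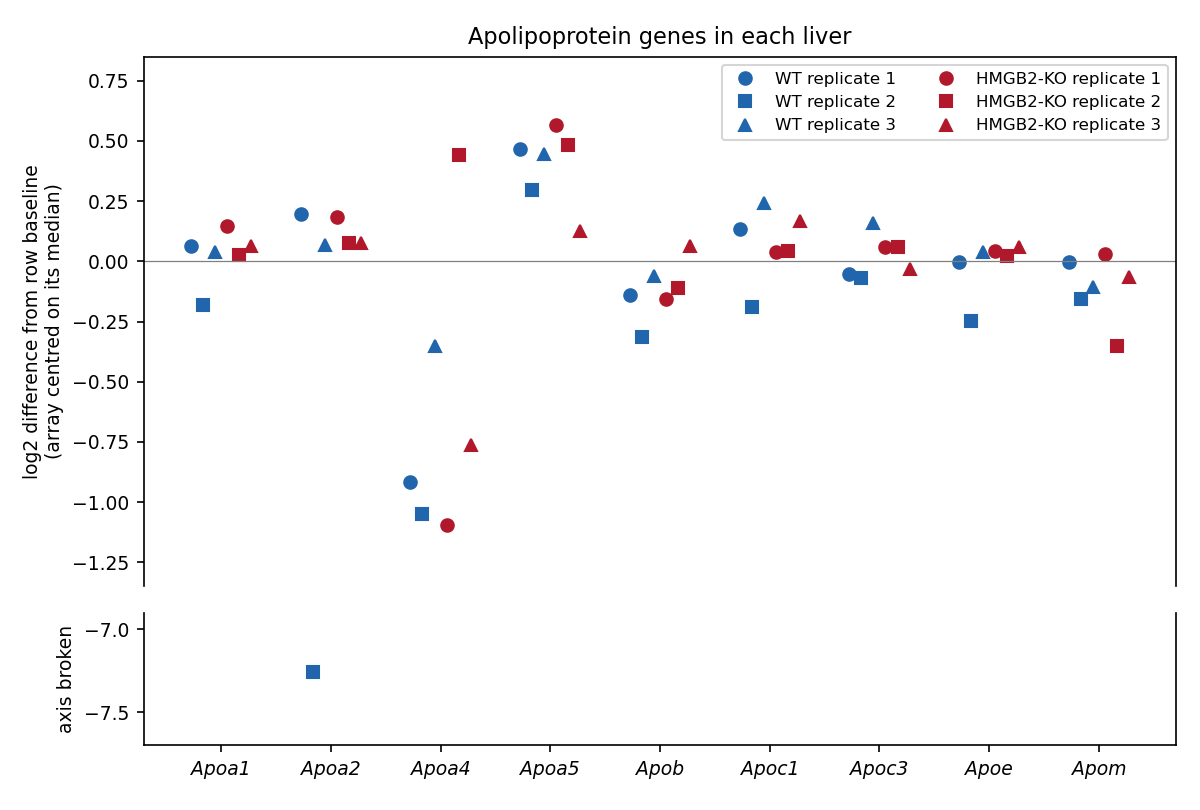
Values of the 9 measured apolipoprotein genes in each liver, in log2 units against each row's unstated baseline, with every array's median set to 0. Blue marks WT and red HMGB2-KO, the marker shape gives the replicate number, and the lower panel continues the broken axis. Apoa2 stands at -7.26 in WT replicate 2, Apoa4 runs from -1.09 to 0.44, and for 6 of the 9 genes WT replicate 2 is the lowest liver.

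The genes of HDL are described first. Apoa1 encodes the chief HDL protein and activator of cholesterol esterification. Its values were 0.06, -0.18 and 0.04 in the WT livers, against 0.15, 0.03 and 0.06 with HMGB2 lost. Only WT replicate 2 lay below the rest, and the groups overlapped. HMGB2-KO against WT gave a log2 fold change of 0.11 (SE 0.12, 95% confidence interval -0.19 to 0.40, limma adjusted p = 0.994), or 0.03 without WT replicate 2 and -0.01 as deposited. The interval with all livers reaches from 1.14-fold lower to 1.32-fold higher.

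Apoa2 encodes the second protein of HDL. It was at 0.19, -7.26 and 0.07 in the WT livers. In the HMGB2-KO livers it was at 0.18, 0.08 and 0.08. A single array, WT replicate 2, thus read it 7.32 log2 below the nearest other liver, while the other 5 livers lay within 0.13 of each other. The WT mean was -2.33 ± 4.27 and the HMGB2-KO mean 0.11 ± 0.06 (SD, n = 3 in both), which gave a log2 fold change of 2.44 (SE 1.79, 95% confidence interval -1.72 to 6.61, limma adjusted p = 0.994). The exact two-sided permutation p was 0.7, where 0.1 is the smallest that 3 against 3 livers allow. Without WT replicate 2 the log2 fold change was -0.02 (SE 0.13, 95% confidence interval -0.34 to 0.30), an interval from 1.26-fold lower to 1.23-fold higher. That array is singled out here by its Apoa2 value, so the interval holds only given this choice and the median centring.

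Such single-array drops were frequent on that array. A row was counted when it lay over 2 log2 below every other liver. WT replicate 2 held 162 such rows, or 0.730% of all rows, of which 142 carried a gene name. WT replicate 1 held 35 and the other 4 livers 3 to 6 each. By the distance to the next liver, Apoa2 had the fifth deepest drop among the named rows of WT replicate 2. Of the 5 other deepest drops, those of Top1 (topoisomerase I) and Ltbr (a receptor of the TNF family) were 8.19 and 7.72 log2. Those of Pex19 (a peroxisome assembly protein), Ccdc127 and Slc25a22 (a mitochondrial glutamate carrier) were 7.57, 7.36 and 7.16. None of the other 8 measured members dropped, either by 2 log2 or by the smaller drop of 1 log2. The nearest were Apoe, 0.24 below the next liver, and Apoc1, 0.23 below it, in the same liver. Both gaps came with the centring. As deposited, Apoe was at 0.0077 and Apoc1 at 0.067 in that liver, and HMGB2-KO replicate 2 was lowest for both, at -0.025 and -0.0037. Of all the genes in the lists of lipoprotein handling and cell markers used here, only Lpl, the lipoprotein lipase gene, shared a drop of over 2 log2. It was at -6.48 in WT replicate 2 and between -0.48 and 0.05 in the other livers, so that its log2 fold change was 2.11 (SE 1.52) with that array and 0.02 without it. Under quantile normalization WT replicate 2 still held the most such rows, at 55, with Apoa2 among them.

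**Figure D2:**
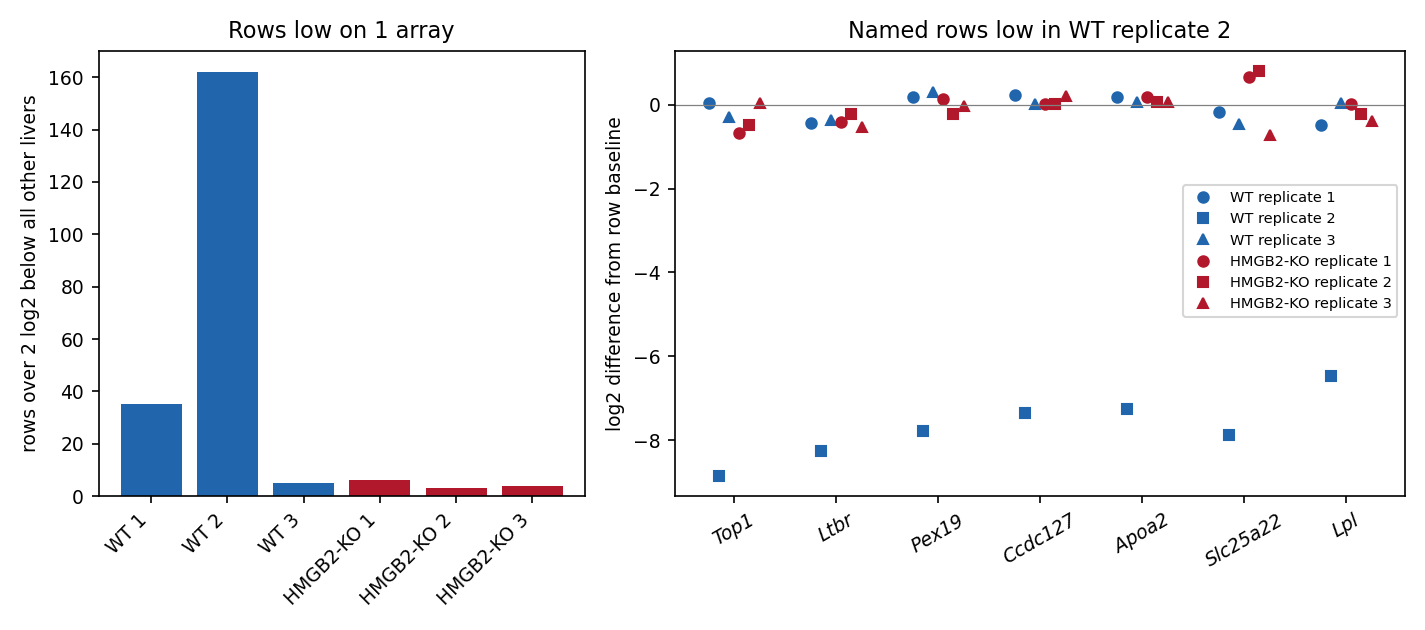
Left, number of rows per liver that lie over 2 log2 below every other liver, with 162 in WT replicate 2 and 35 in WT replicate 1. Right, centred log2 values by liver of the 5 named genes with the deepest drops in WT replicate 2 besides Apoa2, and of Apoa2 and Lpl, with blue for WT, red for HMGB2-KO and the marker shape for the replicate number.

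Apom encodes a lipocalin of HDL that carries sphingosine-1-phosphate. It read -0.00, -0.16 and -0.11 in the WT livers, and 0.03, -0.35 and -0.06 in the HMGB2-KO livers. HMGB2-KO replicate 2 was the lowest liver and HMGB2-KO replicate 1 the highest, so the whole WT range lay within that of HMGB2-KO. Its log2 fold change was -0.04 (SE 0.14, 95% confidence interval -0.37 to 0.29), and 0.07 without HMGB2-KO replicate 2.

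Apob encodes the non-exchangeable scaffold of very-low-density and low-density lipoproteins. WT livers read -0.14, -0.31 and -0.06, and HMGB2-KO livers -0.16, -0.11 and 0.06. The lowest value was again that of WT replicate 2, and the highest was that of HMGB2-KO replicate 3. The log2 fold change of 0.10 (SE 0.13, 95% confidence interval -0.20 to 0.41) was 0.03 without WT replicate 2 and -0.02 as deposited.

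Apoe is the receptor ligand on remnants and is made by hepatocytes and also by macrophages. It stood at -0.00, -0.25 and 0.04 in the WT livers and at 0.04, 0.02 and 0.06 in the HMGB2-KO livers. Apart from WT replicate 2 the livers lay within 0.06 of each other. Between genotypes it differed by a log2 fold change of 0.11 (SE 0.13, 95% confidence interval -0.18 to 0.41), or 0.02 without WT replicate 2 and -0.01 as deposited. The exact two-sided permutation p of 0.2 was the smallest among the 9 genes. Albumin (Alb), a hepatocyte product that is no apolipoprotein, followed nearly the same values, at -0.00, -0.24 and 0.04 in WT and 0.05, 0.03 and 0.03 in HMGB2-KO. In the same livers all 12 measured markers of Kupffer cells and other macrophages had a log2 fold change above 0, with a median of 0.21, where 49.5% of all genes did, and none passed the adjusted threshold. With the values as deposited their median was 0.09, and the markers Adgre1 (-0.04) and Marco (-0.03) lay below 0. The count of 12 above 0 thus depended on the scaling. Groups did not overlap for 2 of the 12, the complement genes C1qa and C1qb, both higher in HMGB2-KO, where 4.32% of all genes were. The median of these markers by liver was 0.21 to 0.40 in WT and 0.32 to 0.67 in HMGB2-KO. Their part in the value of Apoe was not tested, and in bulk liver more cells of a type and more RNA per cell cannot be told apart.

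Among the C apolipoproteins, Apoc1, which hinders remnant uptake, lay at 0.13, -0.19 and 0.24 in the WT livers and at 0.04, 0.04 and 0.17 in the HMGB2-KO livers. The WT livers held the highest and the lowest value. Its log2 fold change was 0.02 (SE 0.15, 95% confidence interval -0.32 to 0.36), and -0.10 without WT replicate 2. Apoc3, an inhibitor of lipolysis, lay at -0.05, -0.07 and 0.16 in WT and at 0.06, 0.06 and -0.03 in HMGB2-KO. The 3 HMGB2-KO livers fell between the lowest and the highest WT liver. Its log2 fold change was 0.02 (SE 0.12, 95% confidence interval -0.27 to 0.30). As deposited, Apoc1 and Apoc3 were both at -0.10.

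Apoa5, a liver gene whose product promotes lipolysis of triglyceride, was at 0.47, 0.30 and 0.45 in the WT livers and at 0.57, 0.48 and 0.12 in the HMGB2-KO livers. HMGB2-KO replicates 1 and 2 were the highest livers and HMGB2-KO replicate 3 the lowest. The log2 fold change of -0.01 (SE 0.15, 95% confidence interval -0.37 to 0.34) became 0.12 without HMGB2-KO replicate 3 and 0.14 within animals 38 to 41.

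Apoa4, whose product rides on HDL and triglyceride-rich particles, was the gene of the group that varied most apart from the Apoa2 drop. WT livers read -0.92, -1.05 and -0.35, and HMGB2-KO livers -1.09, 0.44 and -0.76. HMGB2-KO replicate 2 was the highest liver, 0.79 above the next, and HMGB2-KO replicate 1 was the lowest, so the HMGB2-KO group spanned all WT values. The WT mean was -0.77 ± 0.37 and the HMGB2-KO mean -0.47 ± 0.81 (SD, n = 3 in both), giving a log2 fold change of 0.30 (SE 0.39, 95% confidence interval -0.60 to 1.20, limma adjusted p = 0.994). Without HMGB2-KO replicate 2 it was -0.16, without HMGB2-KO replicate 1 0.61, without WT replicate 2 0.16 and within animals 38 to 41 0.66. A change of up to 2.30-fold higher or 1.52-fold lower lay within the interval.

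**Figure D3:**
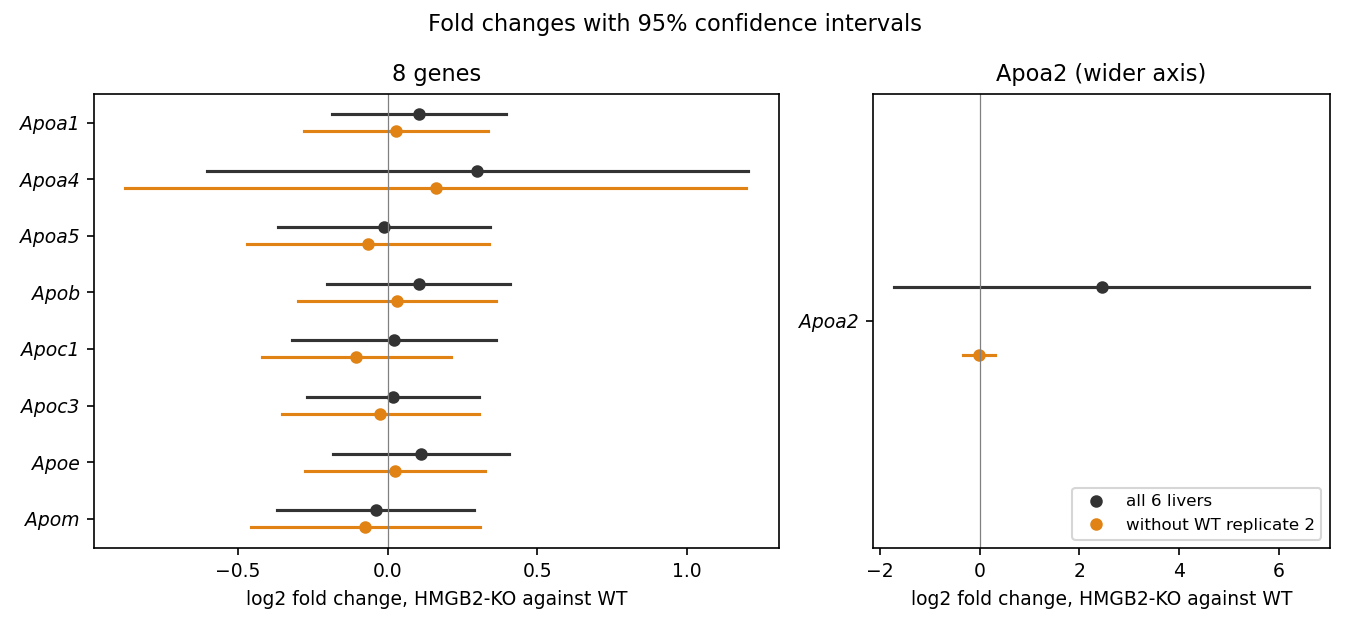
Log2 fold change of HMGB2-KO against WT for each apolipoprotein gene, with its 95% confidence interval from limma, over all 6 livers (black) and without WT replicate 2 (orange). Apoa2 has a panel of its own with a wider axis. Every interval includes 0, and the Apoa2 estimate moves from 2.44 to -0.02 when that array is left out.

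Leaving Apoa2 and Apoa4 aside, the other 7 genes had log2 fold changes between -0.04 and 0.11, with standard errors of 0.12 to 0.15. With all livers, their 95% confidence intervals lay within -0.37 and 0.41, that is, between 1.29-fold lower and 1.33-fold higher. Changes larger than that lay outside the intervals of this fit. Smaller ones could not be resolved with 3 arrays per group. Without WT replicate 2 the intervals reached lower for Apoa5 (-0.47, 1.38-fold lower), Apom (-0.46, 1.37-fold) and Apoc1 (-0.42, 1.34-fold). The highest upper bound without that array was 0.36, for Apob. As deposited, the 7 log2 fold changes lay between -0.16 (Apom) and -0.01 (Apoe). The bounds thus hold for the median-centred fit with all livers only.

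The genes also differed in how much they varied between livers. Over the 5 livers without WT replicate 2, the SD of Apoe was 0.02, at percentile 0.115 among all genes, and that of Apoa1 was 0.05, at percentile 1.21. Apoa2 followed with 0.06 (percentile 3.25), and Apoc3, Apoc1 and Apob lay at 0.08 to 0.09 (percentiles 8.34 to 9.21). Apom at 0.15 and Apoa5 at 0.17 were closer to the median gene, whose SD was 0.18. Apoa4 was the exception, with an SD of 0.61 at percentile 97.7. In all, 8 of the 9 genes varied less than the median gene over these 5 livers, and 7 of the 9 did over all 6, where Apoa2 and Apoa4 were above it. Over all 6 livers Apoe was at percentile 13.4, Apoa1 at 11.2, Apoc1 at 28.2, Apob at 16.2 and Apoa2 at 99.97. The percentiles of Apoc3 (5.00), Apom (22.6), Apoa5 (33.5) and Apoa4 (96.0) were lower than over the 5 livers. Apoa1 and Apoa4, whose upstream sequences are given above, lie on either side of Apoc3 and differed widely in SD. The median SD of the 22 other plasma protein genes over the 5 livers was 0.12, against 0.09 for the apolipoprotein genes. A low SD was not particular to the apolipoprotein genes. Of other hepatocyte products, Serpina1a was at percentile 0.0026 and Alb at 0.054 over the 5 livers, while Serpina6 was at 96.6.

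**Figure D4:**
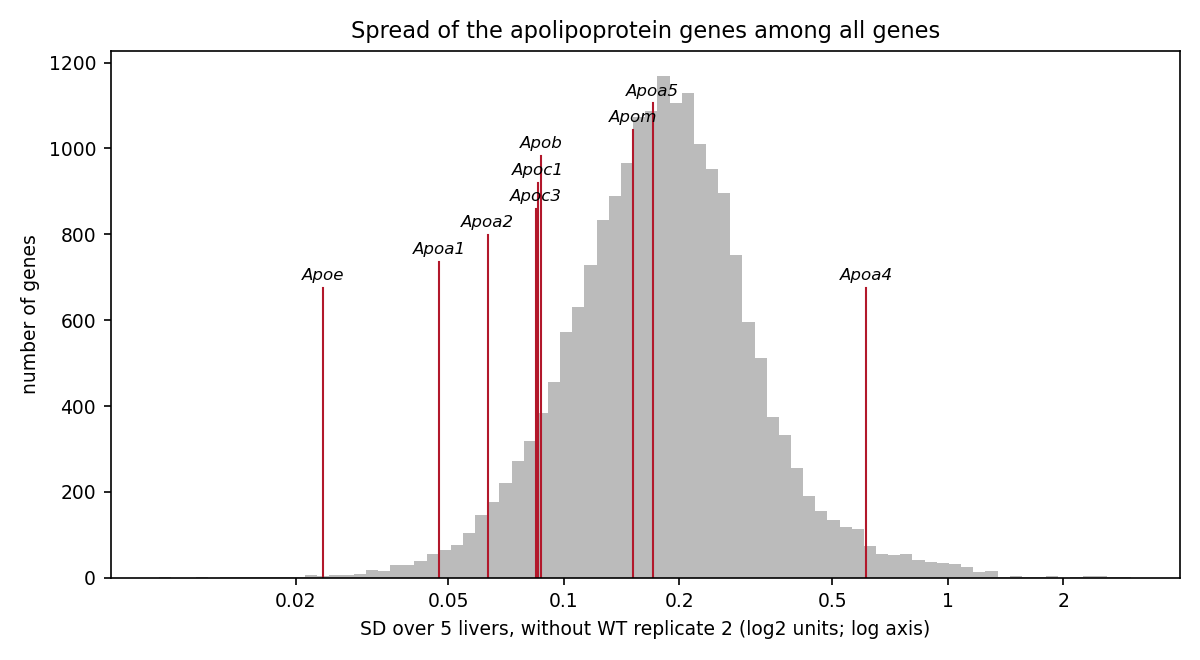
Histogram of the SD of each of 19505 genes over the 5 livers other than WT replicate 2 (log axis, log2 units), with a red line at each apolipoprotein gene. Apoe, at 0.02, lies at the lower edge of the distribution and Apoa4, at 0.61, in its upper tail.

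Likeness between the genes changed when WT replicate 2 was left out. Over the 6 livers the partner with the highest Pearson r was Apoe for Apoa2 (r = 0.98), for Apoc1 (0.86) and for Apoc3 (0.55), Apoa2 for Apoa1 (0.93), and Apoc1 for Apob (0.84). Without that array the same pairs were at -0.52, 0.19, 0.31, 0.68 and 0.56. Apoa4 and Apoa5 were closest to Apoc3 (0.50 and 0.49), and Apom to Apoa1 (0.43). These are descriptions over 6 arrays that share their scaling, and no test was made. WT replicate 2 was the lowest liver for 6 of the 9 apolipoprotein genes and for 13 of the 22 other plasma protein genes after centring, and for 22.3% of all genes. As deposited, it was the lowest for 1 of the 9 and 0 of the 22.

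The genes that assemble, process and clear lipoproteins gave 0 calls after adjustment in each list, with limma over all genes. In the list of assembly, editing and secretion, 1 of 21 genes had an unadjusted p under 0.05, higher in HMGB2-KO, where 1.06% of all genes did. This was Sort1, the sorting receptor sortilin that binds apolipoprotein B in the secretory path. It was at -0.26, -0.40 and -0.34 in the WT livers and at 0.18, 0.21 and -0.06 in the HMGB2-KO livers, so the groups did not overlap. That is a log2 fold change of 0.45 (SE 0.13, 95% confidence interval 0.15 to 0.74, limma adjusted p = 0.994), with 0.40 to 0.53 when 1 liver was left out and 0.33 as deposited. Mttp, which loads lipid onto apolipoprotein B, was at 0.27 (SE 0.15), and Apobec1, which edits the Apob transcript to its short form, was at 0.50 (SE 0.25). For Mttp the groups overlapped by a narrow margin, with 0.05 in the highest WT liver and 0.04 in the lowest HMGB2-KO liver. Apobec1 ranged from -0.13 to 0.61 in WT and from 0.43 to 1.15 in HMGB2-KO. Sar1b, a GTPase of the export of large lipoproteins from the endoplasmic reticulum, was named after its values were seen, as the other of 2 genes in this list with groups that did not overlap, both higher in HMGB2-KO, against 4.32% of all genes. It ranged from 0.32 to 0.55 in WT and from 0.56 to 0.75 in HMGB2-KO, with a log2 fold change of 0.21 (SE 0.13). The list's median was 0.00, with 12 genes above 0 and 9 below.

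Among further apolipoproteins and lipoprotein-borne proteins, 13 of 21 measured genes lay above 0, with a median of 0.03 and 0 at an unadjusted p under 0.05. Pltp, the phospholipid transfer protein that remodels HDL, was lower in every HMGB2-KO liver than in any WT liver. It read 1.03, 0.58 and 0.59 in the WT livers. The HMGB2-KO livers were at 0.38, 0.34 and 0.44, for a log2 fold change of -0.34 (SE 0.15, adjusted p = 0.994 in limma), or -0.20 at the least with 1 liver left out. It was 1 of 21 genes with groups that did not overlap in that direction, against 5.35% of all genes. Pon1, an HDL-borne esterase, was at -0.18 (SE 0.14), Saa4 at 0.39 (SE 0.22), and Apoh at -0.07 (SE 0.19). The acute-phase apolipoproteins Saa1 and Saa2, named after their values were seen, varied over several log2 between livers. Saa2 ran from -5.88 to -3.67 in WT and from -6.09 to -0.89 in HMGB2-KO, and for both genes HMGB2-KO replicate 3 was the highest liver and WT replicate 3 the second highest. Saa1 was at -2.48 in WT replicate 3 and at -0.43 in HMGB2-KO replicate 3, and at or below -4.04 in the other 4 livers. Their log2 fold changes of 0.84 (SE 1.11) and 1.01 (SE 1.29) turned to -0.47 and -0.59 without HMGB2-KO replicate 3 and to -0.43 and -0.67 with quantile normalization. These close copies share much sequence, so their single values are uncertain.

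In the list of lipases and their regulators, 9 of 14 genes lay above 0 (median 0.01). Lmf1, a folding factor for lipases, had a log2 fold change of 0.34 (SE 0.15). A narrow margin separated its groups, from 0.30 to 0.75 in WT and from 0.76 to 0.87 in HMGB2-KO. It was 1 of 14 genes with groups that did not overlap in that direction, against 4.32% of all genes. Pcsk6 and Pnpla3 were at 0.24 each (SE 0.15 for both). Among receptors and uptake genes, 7 of 15 lay above 0 (median -0.02). The fatty acid and lipoprotein receptor gene Cd36 was at 0.37 (SE 0.15), with -0.31 to 0.01 in WT and 0.02 to 0.39 in HMGB2-KO, so that 0.01 separated the groups, and its unadjusted p was 0.0428 in limma. It was 1 of 15 genes higher at an unadjusted p under 0.05, against 1.06% of all genes. It was also 1 of 15 with groups that did not overlap in that direction, against 4.32%. The receptor chaperone gene Lrpap1 was at -0.23 (SE 0.17) and Lrp2 at -0.12 (SE 0.13). In the list of transfer to HDL, 3 of 10 genes lay above 0 (median -0.03). Pltp, described above, is in this list too. It was 1 of 10 genes with groups that did not overlap, lower in HMGB2-KO, against 5.35% of all genes. Abca7 was at 0.47 (SE 0.42), but at -0.06 without WT replicate 2, Abcg1 was at 0.13 (SE 0.14), and Lcat, which esterifies HDL cholesterol, was at -0.03 (SE 0.12).

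The list of transcription factors and cofactors had 13 of 25 above 0 and a median of 0.02, with none at an unadjusted p under 0.05. Creb3l3, a membrane-bound factor that drives Apoa4 in fasting, was at 0.25 (SE 0.16) and was highest in HMGB2-KO replicate 2, at 0.55, the liver with the highest Apoa4. HMGB2-KO replicate 1, with the lowest Apoa4, stood next at 0.45. Nr0b2, the corepressor SHP, was at -0.35 (SE 0.27), Nr5a2 at 0.28 (SE 0.21) and Hnf4a, the nuclear receptor that sustains most apolipoprotein genes in liver, at 0.16 (SE 0.25). The 22 other plasma protein genes, with 17 above 0, had a median of 0.05, or -0.07 as deposited. Of these Rbp4 was at 0.21 (SE 0.13), Hp at 0.19 (SE 0.20) and F2 at 0.13 (SE 0.15). With the values as deposited the median was below 0 in each of these 7 lists, as it was for all genes (-0.12).

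**Figure D5:**
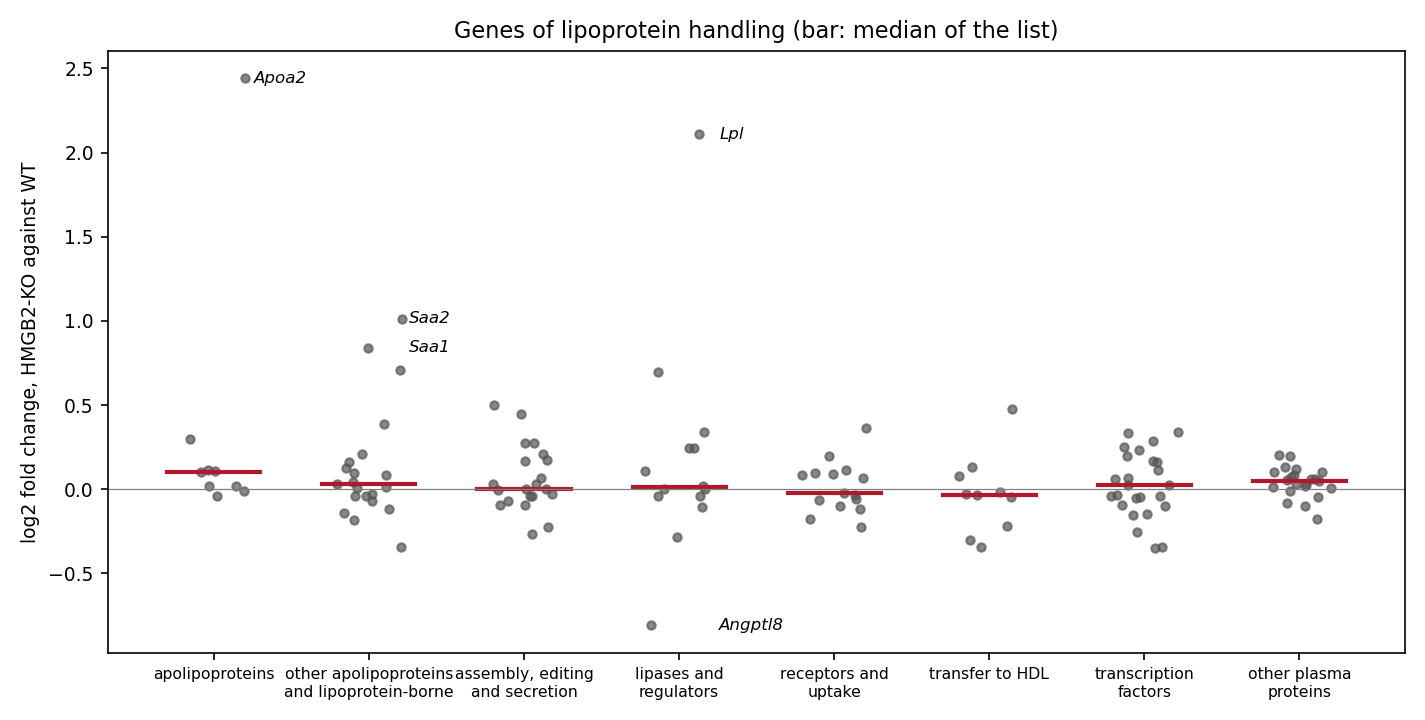
Log2 fold change of HMGB2-KO against WT for each measured apolipoprotein gene and each gene of the 7 lists, with the median as a red bar. Each list has 1 point per gene, and a gene in more than 1 list is shown in each. The medians lie between -0.03 and 0.10, and Apoa2 and Lpl stand out through the array of WT replicate 2. Saa1, Saa2 and Angptl8 (-0.81, SE 0.74) are named as the next farthest from 0.

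Markers of other cells that could contribute apolipoprotein transcripts gave 0 adjusted calls. The 13 enterocyte markers had a median of 0.02, with list medians by liver of -0.16 to -0.06 in WT and -0.08 to -0.01 in HMGB2-KO, and in HMGB2-KO replicate 2, where Apoa4 was highest, the median was -0.08. The enterocyte marker Alpi was at 0.46 with an unadjusted limma p of 0.0257, and groups did not overlap for Alpi (higher) and Sis (lower). Among all genes 1.06% were higher at an unadjusted limma p under 0.05. Groups did not overlap for 4.32% (higher) and 5.35% (lower) of all genes. Of the 10 endothelial markers 7 lay above 0 and 3 below, with a median of 0.07. Groups did not overlap for 3 of them, Pecam1, Oit3 and Eng, all higher in HMGB2-KO, against 4.32% of all genes. Pecam1 and Oit3 also had an unadjusted limma p under 0.05, against 1.06% of all genes. Among the 7 cholangiocyte markers Muc1, at -0.29, was lower with an unadjusted limma p under 0.05, as 2.61% of all genes were. Groups did not overlap for Muc1 (lower) and Krt19 (higher), against 5.35% and 4.32% of all genes. Medians were 0.09 over 10 hepatocyte markers, 0.04 over 9 stellate cell, -0.22 over 7 cholangiocyte and 0.08 over 8 lymphocyte markers. With the values as deposited the median was below 0 in each of the marker lists of this paragraph. The part of these cells in the apolipoprotein values was not tested.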

How the data were processed

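Total RNA from 6 livers was read on 1 array each. The authors deposited 22206 rows of values, taken here as log2 differences from a row baseline. Their log base, summarization and normalization, and what the baseline is, remain not given in the sources used here, and 0 columns were left unused. Rows were named by the platform annotation (2634 have no name). Where a gene had more than 1 row (55 genes), that of the highest mean was kept.

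Each array was centred on its median. The 2 genotypes entered limma 3.58.1, run in R 4.3.3 (lmFit, eBayes, two-sided, all 6 livers, genotype only) over 19505 genes with Benjamini-Hochberg adjustment. The code was tested on simulated data. Alternatives were the deposited values, quantile normalization, centring on plasma protein genes, the mean of rows, a replicate block, an animal number term, animals 38 to 41 only, array weights, no moderation, and leaving out each liver.

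Members and lists were chosen with earlier results of these data known. Named are all members, Hmgb2, the 3 genes of each list with the smallest p, Apoh, Mttp, Apobec1, Lcat and Hnf4a, and the 5 deepest drops. Lpl, Alb, Saa1, Saa2, Sar1b, Nr1d1, Angptl8 and the cell markers were added after their values were seen. Genes of the lists with no named row are not analysed here.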

Additional observations from a re-analysis of the deposited data

How the results depend on the processing

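No apolipoprotein gene and none of the genes in the 7 lists of lipoprotein handling passed the adjusted threshold in limma under any of the 15 alternatives (smallest adjusted p 0.863 for the former). Nor did any of the 19505 genes tested, Hmgb2 included, so the absence of calls is not particular to these genes. Of the 15, 4 (the mean of rows, the replicate block, the animal number term and no moderation) cannot move the fold changes of the 9 genes. Under the other 11, 78 of 99 values kept their sign and 21 turned it. With the values as deposited Apoa1 was at -0.013, Apoe at -0.0066, Apob at -0.015, Alb at -0.016 and Apoc1 and Apoc3 at -0.10. Centring on plasma protein genes gave Apoc1 -0.014 and Apoc3 -0.018, array weights gave Apoc1 -0.018, and quantile normalization gave Apoa5 0.0091, Saa1 -0.43 and Saa2 -0.67. Within animals 38 to 41, Apoa5 was at 0.14, Apoh at 0.017, Lcat at 0.061 and Nr5a2 at -0.0083. With 1 liver left out, values ran from -0.020 to 3.71 for Apoa2, -0.16 to 0.61 for Apoa4, -0.10 to 0.12 for Apoa5, -0.10 to 0.11 for Apoc1, -0.024 to 0.092 for Apoc3, -0.12 to 0.072 for Apom, -0.060 to 0.87 for Abca7, -0.25 to 0.073 for Apoh, -0.031 to 0.37 for Hnf4a, -0.0035 to 0.31 for Hp, -0.076 to 0.036 for Lcat, -0.47 to 1.66 for Saa1 and -0.59 to 2.01 for Saa2. The cause of these turns was not tested. The count of 1 apolipoprotein gene with a single-array drop held with a drop of 1 log2, as deposited and with quantile normalization. The count of 7 genes less variable than the median gene was 7 to 8 with 1 liver left out.

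The same-numbered livers deviated together with r = 0.04, 0.13 and 0.29, so the numbers were not taken to pair the animals. HMGB2-KO replicate 1 correlated best with WT replicate 2 (r = 0.10), and the other 2 HMGB2-KO livers with their own number. With the replicate block, 0 genes of the group and 0 of the lists were called, as were 0 of all genes. A block cannot move fold changes with 1 liver of each genotype per number, so those of Apoa2 (2.44) and Apoa4 (0.30) say nothing of stability there. The number of arrays limits the precision, and signal over background is unknown.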

Other observations

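In HMGB2-KO replicate 2, where Apoa4 was 0.79 above the next liver, 11 named rows, Apoa4 included, rose at least as far above every other liver. WT replicate 2 held 130 such rows and the other 4 livers 3 to 10 each. The genes were looked up after the values were seen. Cyp2b10, a xenobiotic-induced cytochrome, was at 1.76 there and at 0.56 in the next liver. Cidec, a lipid droplet protein, was at 1.34, against -0.37 to 0.14 in the other livers. G0s2, an inhibitor of triglyceride lipase, was at 1.57, against -0.27 to 0.76. Retsat, a retinol saturase, was at 1.25, against -0.42 to 0.15. The other 6 were Steap4, 1810055G02Rik, Slc25a42, Pex11a, Txnip and Fam126b. No list of these genes was fixed and no test was made, and the values rest on 1 liver.

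In the same liver the 22 other plasma protein genes had a centred median of -0.19, while that of the 8 apolipoprotein genes without Apoa2 was 0.04. In WT replicate 2 both were low after centring, at -0.25 and -0.18, and in the other 4 livers they lay between -0.03 and 0.06. As deposited, the 2 medians were 0.00 and 0.07 in WT replicate 2, so they were low there through the centring only. In HMGB2-KO replicate 2 they were -0.24 and -0.01 as deposited.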
